A study of Sus scrofa with 36 samples.

Results

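CCL5, CCR1 and ACKR2 are 3 of the 12253 genes measured by RNA-Seq in the subcutaneous fat of 36 pigs. CCL5 (ENSSSCG00000017705), also called RANTES, is a chemokine, a small secreted protein that draws leukocytes into tissue. CCR1 (ENSSSCG00000011322) is a receptor that binds CCL5 and related chemokines and signals through G proteins. ACKR2 (ENSSSCG00000011289) is an atypical receptor that binds inflammatory CC chemokines, takes them up and degrades them without the usual G protein signal. The genes were selected on results from these same animals. The study picked CCL5 because its co-expression and its level differed between obese and lean pigs, and CCR1 and ACKR2 because they came out as regulators of gene clusters that held many genes of its Blue and Black modules. Differences between the obesity groups, co-expression (with each other and with other genes) and module membership of the 3 genes are therefore given as a description, without a test. Sex was not a criterion of the choice. Tests are given for the differences between males and females, and for the difference between the sexes in obese minus lean (the interaction). For CCL5 these tests are not independent of the choice. Without the 3 obese females highest in CCL5, its obese minus lean difference fell from 0.79 to 0.28 on the log2 scale. Its male minus female difference went from -1.10 to -0.73 without the same pigs. The interaction is built from the obese and lean values that entered the choice of CCL5.

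The pigs came from an F2 intercross of Göttingen Minipig boars with Duroc sows and were taken from the ends and the middle of an Obesity Index, a predicted genetic value. The lean group (labelled Low) held 7 males and 5 females, and the intermediate (Mean) and obese (High) groups held 6 males and 6 females each. Age at slaughter differed between the groups, so age and group cannot be told apart here, and litters and sequencing lanes were not assigned to pigs in the labels. Adipocyte markers such as PLIN1, CIDEC and LIPE were measured in every pig, and 7 of the 12 listed adipocyte genes were in the table. No gene of the skeletal muscle and platelet lists was found in the table. Lists were matched by symbol, and 8425 of the 12253 genes had one. The authors had also dropped genes of low level, and the fewest reads of any gene in a pig were 6. A listed gene that was not found may therefore still be expressed. Read totals were between 8735838 and 11755925 per pig. Levels below are normalized counts, which are reads divided by the size factor of the pig. Differences are on the deposited log2 scale. In bulk tissue, fewer cells of a type and less RNA per cell cannot be told apart.

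Chemokines of the CC family are made by activated T and NK cells, macrophages, endothelial cells and fibroblasts. In fat tissue they are best known for the entry of monocytes and lymphocytes during weight gain. A single CC chemokine usually binds several receptors, and several chemokines share a receptor, so the ligand and its receptors can be made by different cells of the same tissue. Atypical receptors lower the amount of free chemokine.

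On Sscrofa10.2, the build the authors mapped to, the gene list of the study placed CCR1 on chromosome 13 from 32323642 to 32330286. ACKR2 lay on the same chromosome from 28991359 to 28992704. The other receptor genes CCR2/CCR3 (ENSSSCG00000024311, 32532565 to 32538394) and CCRL2 (32566384 to 32568453) were close to CCR1. ENSSSCG00000024311 is called CCR2 in the gene list of the study and CCR3 in the gene name table used here, hence both names. The name ACKR2 for ENSSSCG00000011289 rests on the gene list of the study alone. The gene name table used here gives ACKR2 to another identifier, which was not analysed here, so whether the values below are those of ACKR2 is not certain. That model spans 1346 bases on Sscrofa10.2, whereas the ACKR2 gene of RefSeq spans 37924 bases on Sscrofa11.1, so reads from outside the short model were not part of its count. For CCR1 the span was 6645 bases in both. Without transcript lengths of the build used, the levels of the 3 genes are not compared with each other.

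The ligand CCL5 was lowest in the lean pigs. Its normalized counts were between 49.8 and 156 with a median of 78.8 in the 12 lean pigs. In the intermediate pigs they were between 54 and 376 with a median of 145. In the obese pigs they were between 72.7 and 862 with a median of 104. The 3 ranges overlapped, and 10 of 12 obese pigs were above the lean median. The obese group was uneven, as obese females 1, 2 and 3 had 662, 862 and 339, while the other 9 obese pigs had values from 72.7 to 154. The obese minus lean difference was 0.79 on the log2 scale (SE 0.30), or 1.73-fold, and the intermediate minus lean difference was 0.57. Without these 3 females, obese minus lean was 0.28 (SE 0.24). The order of the groups thus differed between the mean (86.7 ± 33.2, 156 ± 102 and 231 ± 262, SD, n = 12 each) and the median, where the intermediate group was highest.

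CCR1, the receptor, went from 39.3 to 494 with a median of 121 in the lean pigs. The intermediate pigs lay between 62.6 and 704 with a median of 266. The obese pigs lay between 119 and 603 with a median of 349. Of the 12 obese pigs, 11 were above the lean median, and 6 lean pigs were below the lowest obese pig. The obese minus lean difference was 1.32 on the log2 scale (SE 0.39), or 2.50-fold. Obese minus intermediate was 0.40, less than the SD between single pigs of either group, which is not the error of this difference. In contrast to CCL5, the difference did not rest on obese females 1, 2 and 3, without which it was 1.25 (SE 0.43).

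ACKR2, the scavenging receptor, showed normalized counts from 118 to 950 with a median of 346 in the lean pigs. In the intermediate pigs the range was 128 to 1014 and the median 453. In the obese pigs the range was 180 to 1415 and the median 468. The groups overlapped over most of their ranges, and 9 of 12 obese pigs were above the lean median. Obese minus lean was 0.62 on the log2 scale (SE 0.37), or 1.54-fold, and obese minus intermediate was 0.01.

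**Figure D1:**
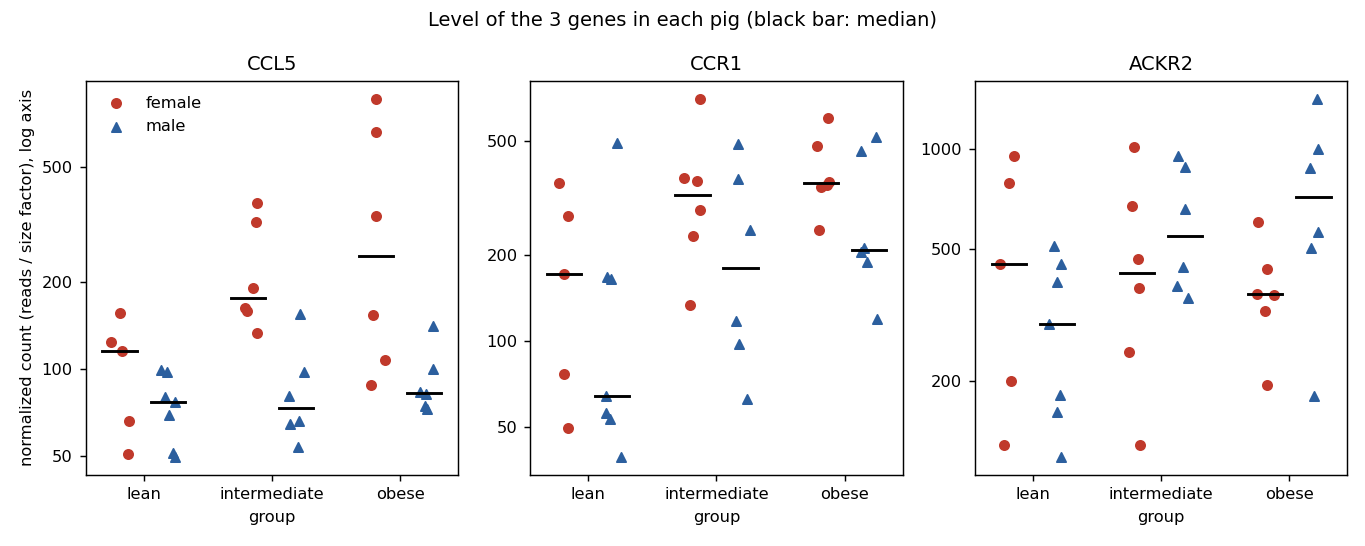
Normalized count (log axis) of CCL5, CCR1 and ACKR2 in each of 36 pigs by obesity group, with females as circles, males as triangles and the median of each sex in each group as a bar. For CCL5 the 3 highest obese females reach 339 to 862 and every male lies at or below 155; ACKR2 is the gene for which obese males lie above obese females by their medians (718 against 364).

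The spread between pigs is also given as a description, since the steps by which the study chose these genes first kept only genes with a higher SD. The SD between pigs of a group, pooled over the groups, was 0.95 for CCL5, 1.03 for CCR1 and 0.94 for ACKR2 on the log2 scale, beside a median of 0.333 over all 12253 genes. Of all genes, 3.11%, 2.03% and 3.31% had a larger SD, respectively. Counting error was small beside this spread, as the fewest reads of any of the 3 genes in a pig were 36.

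The spread differed between the groups. For CCL5 the SD was 0.53 among lean pigs, 0.90 among intermediate pigs and 1.27 among obese pigs. Without obese females 1, 2 and 3 it was 0.36 in the other 9 obese pigs, below the lean SD. For CCR1 the SD was 1.26, 1.05 and 0.73 in the lean, intermediate and obese group, and also 0.73 without the 3 females. The SD of ACKR2 was 1.02, 0.88 and 0.89. The median SD of all genes was 0.334, 0.310 and 0.316 in the 3 groups. These spreads were not tested against each other.

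**Figure D2:**
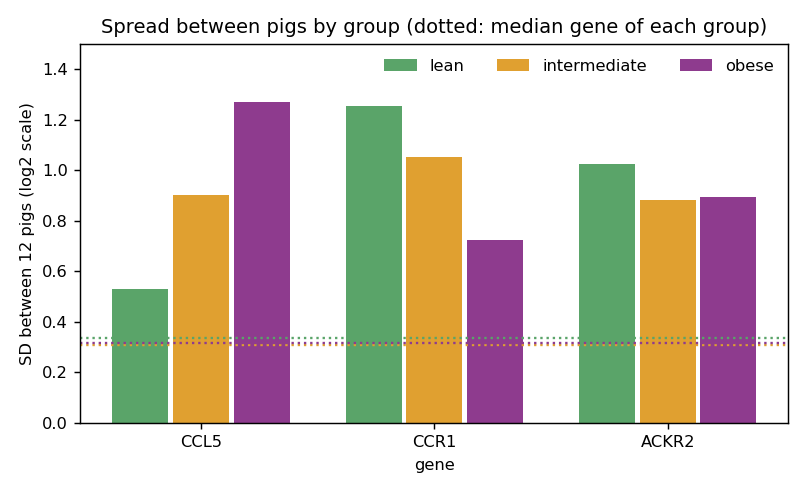
SD between the 12 pigs of a group on the log2 scale (bars) for CCL5, CCR1 and ACKR2, with dotted lines at the median SD of all genes in each group. The obese bar is highest for CCL5 (1.27, but 0.36 without obese females 1, 2 and 3) and the lean bar is highest for CCR1 (1.26), and each bar is above the dotted lines at 0.310 to 0.334.

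Males and females differed in CCL5. The 19 males had normalized counts from 49.8 to 155 with a median of 80.5, and the 17 females had counts from 51.1 to 862 with a median of 156. All 19 males lay below the female median, and 9 of 17 females lay above the highest male. CCL5 was 2.14-fold lower in males, with a male minus female difference of -1.10 on the log2 scale (SE 0.25, limma, BH-adjusted p = 0.0135). In this comparison 2.19% of all genes were called in either direction and 1.23% were called as higher in females, so CCL5 was among 151 such genes and had rank 77 of 12253 by p. Without obese females 1, 2 and 3, the 3 pigs with the highest score of the T and NK cell list, the difference was -0.73 (SE 0.19) with a limma adjusted p of 0.0725, and 71 instead of 268 genes were called.

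The direction was the same in the 3 groups. In the lean pigs the 5 females had 51.1, 66.3, 116, 124 and 156 and the 7 males had 49.8 to 99.6 with a median of 77.0. In the intermediate pigs the 6 females had 134 to 376 with a median of 177, and the 6 males had 54.0 to 155 with a median of 73.6, so 5 of 6 males were below the lowest female. In the obese pigs the 6 females had 88.0 to 862 with a median of 246, and the 6 males had 72.7 to 141 with a median of 83.0. The log2 differences, males minus females, were -0.43 for the lean group, -1.37 for the intermediate group and -1.47 for the obese group. Their two-sided exact permutation p-values were 0.178, 0.00649 and 0.0346, or 0.282, 0.0584 and 0.156 after BH adjustment over the 9 comparisons of 3 genes in 3 groups.

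The receptors did not pass the same test for sex. CCR1 had a median of 168 in males and 345 in females, and its log2 difference, males minus females, was -0.66 (SE 0.32, limma, BH-adjusted p = 0.262, unadjusted p = 0.0448). At an unadjusted p below 0.05, 18.3% of all genes differed between the sexes, so CCR1 was 1 of many. ACKR2 had a median of 451 in males and 381 in females, and its difference was 0.26 (SE 0.30, limma adjusted p = 0.697).

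In females alone, obese minus lean was 1.37 for CCL5 (SE 0.54), 1.33 for CCR1 (SE 0.47) and -0.16 for ACKR2 (SE 0.53). In males alone it was 0.33 (SE 0.24), 1.32 (SE 0.58) and 1.27 (SE 0.43), respectively. The interaction, obese minus lean in males minus that in females, was -0.01 for CCR1 (SE 0.80, limma, BH-adjusted p = 0.997). The interaction was -1.04 for CCL5 (SE 0.59, limma, BH-adjusted p = 0.448). For ACKR2 it was 1.43 (SE 0.71, limma, BH-adjusted p = 0.389, unadjusted p = 0.0516). Without obese females 1, 2 and 3 the estimates turned to 0.21 for CCL5 (limma adjusted p = 0.878) and 0.21 for CCR1 (limma adjusted p = 0.946), and that of ACKR2 was 1.17 (limma adjusted p = 0.536). None of the 3 passed, and the SEs leave room for sizeable differences between the sexes. Over all genes 0.00816% were called for the interaction, which is 1 gene (ENSSSCG00000010229, without a symbol, noted after its value was seen). Among the 6 obese males ACKR2 was between 180 and 1415, with 5 of them at 503 or more, and the 6 obese females had between 195 and 601.

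Markers of several cell types had lower estimates in males, as CCL5 had, and those of fibroblasts and progenitors had mostly higher ones. For T and NK cells, of the 32 listed genes 9 were found in the table (CD2, CD8A, CD247, PRF1, NKG7, IL2RB, IL7R, LCK and TBX21). CD3D, CD3E, CD3G and the granzymes were not found by symbol, which does not show that they were absent. In males minus females none of the 9 passed the adjusted threshold, while 8 had an unadjusted p below 0.05 in limma with lower values in males, beside 10.3% of all genes. The median difference of the 9 was -0.86 beside -0.01 over all genes. CD2, an adhesion receptor of T and NK cells, differed by -1.07 (SE 0.31, limma adjusted p = 0.0563), and CD8A, the co-receptor of cytotoxic T cells, by -1.09 (SE 0.33, limma adjusted p = 0.0667). The summed normalized count of the 9 genes was 593 to 1284 in males and 688 to 3259 in females. Obese females 1, 2 and 3 had sums of 3259, 3068 and 1972, and the other 14 females had 688 to 1522. The same 3 pigs held ranks 1 to 3 by the score of the list, with 2.50, 2.38 and 1.48, ahead of 0.87 in the next pig.

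For adipocytes, all 7 genes in the table had estimates below 0 in males minus females, beside 52.3% of all genes, with a median of -0.37. Of the 7, 2 were called, beside 1.23% of all genes called as higher in females. Among them LIPE, the hormone-sensitive lipase, was called at -0.55 (SE 0.11, limma adjusted p = 0.00534), and PNPLA2, the adipose triglyceride lipase, at -0.37 (SE 0.10, limma adjusted p = 0.0483). The summed normalized count of the 7 genes was 33218 to 78421 in males and 42035 to 109748 in females. All 13 macrophage genes had estimates below 0 with a median of -0.35, again beside 52.3% of all genes. Of these 4 had an unadjusted p below 0.05, beside 10.3% of all genes in that direction, and none was called. Their sum was 3407 to 17301 in males and 4604 to 23008 in females. Of the 9 fibroblast and progenitor genes 7 had estimates above 0, with a median of 0.59, and 2 were called as higher in males, beside 0.955% of all genes. By the score of this list obese females 1 and 2 were the lowest of all 36 pigs, with -1.39 and -1.34. The part of any of these cells in the sex difference of CCL5 was not tested.

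Apart from the 3 genes, 12 chemokine ligands and receptors were found in the table by symbol. With the 3 genes included, these were 4 of 25 CC ligands, 2 of 20 other ligands, 5 of 11 CC receptors and 4 of 8 atypical receptors. Of 8 other chemokine receptors none was found by symbol. None of the 12 was called between obese and lean pigs in limma after BH adjustment, where 0.0408% of all genes were called. These are 5 genes, all lower in obese pigs and noted after their values were seen, of which only TAS1R3, a subunit of the sweet and umami taste receptors, has a symbol. At an unadjusted p below 0.05 there were 4 of the 12, beside 14.7% of all genes. The median obese minus lean difference of the 12 genes was 0.01, beside -0.01 for all genes.

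Among the CC ligands, CCL23, a chemoattractant for monocytes that binds CCR1, had the largest difference at 1.25 (SE 0.44, limma adjusted p = 0.157). Its normalized counts were 22.8 to 600 with a median of 60.9 in lean and 96.5 to 462 with a median of 229 in obese pigs. CCL2, the classical monocyte chemoattractant, had a difference of 0.60 (SE 0.39, limma adjusted p = 0.484), with medians of 216 in lean and 265 in obese pigs. CCL2 was also uneven in the obese pigs, with counts from 107 to 1068 and an SD of 1.33 on the log2 scale. CCL19, which guides T cells and dendritic cells in lymphoid tissue, had -0.43 (SE 0.18, limma adjusted p = 0.227), from a median of 473 in lean to 370 in obese pigs. The other ligands CXCL2, an attractant of neutrophils, and CXCL14 had -0.56 and -0.34.

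Among the CC receptors, CCRL2, a receptor-like protein that binds chemerin, had an obese minus lean difference of 0.77 (SE 0.30, limma adjusted p = 0.2). It was low throughout, with medians of 15.4 in lean and 28.8 in obese pigs. CCR2/CCR3 had 0.35 and medians of 32.1 and 49.0. CCR10, a receptor of skin-homing T cells, had -0.06 and medians of 16.7 and 15.1.

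None of the other atypical receptors passed the test between obese and lean pigs. ACKR3, which takes up CXCL12, had an obese minus lean difference of 0.07 with medians of 1138 and 1219. ACKR4, which takes up CCL19 and CCL21, had -0.06 with medians of 4096 and 3687. DARC, listed under the older symbol of ACKR1, a chemokine binder of red cells and venules, had -0.33 with medians of 943 and 748. Between the sexes none of the 12 genes was called, and 10 had estimates below 0 for males minus females, beside 52.3% of all genes. At an unadjusted p below 0.05 there were 2 of the 12, a share near the 18.3% of all genes. CCRL2 had -0.69 (SE 0.24, limma adjusted p = 0.114).

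**Figure D3:**
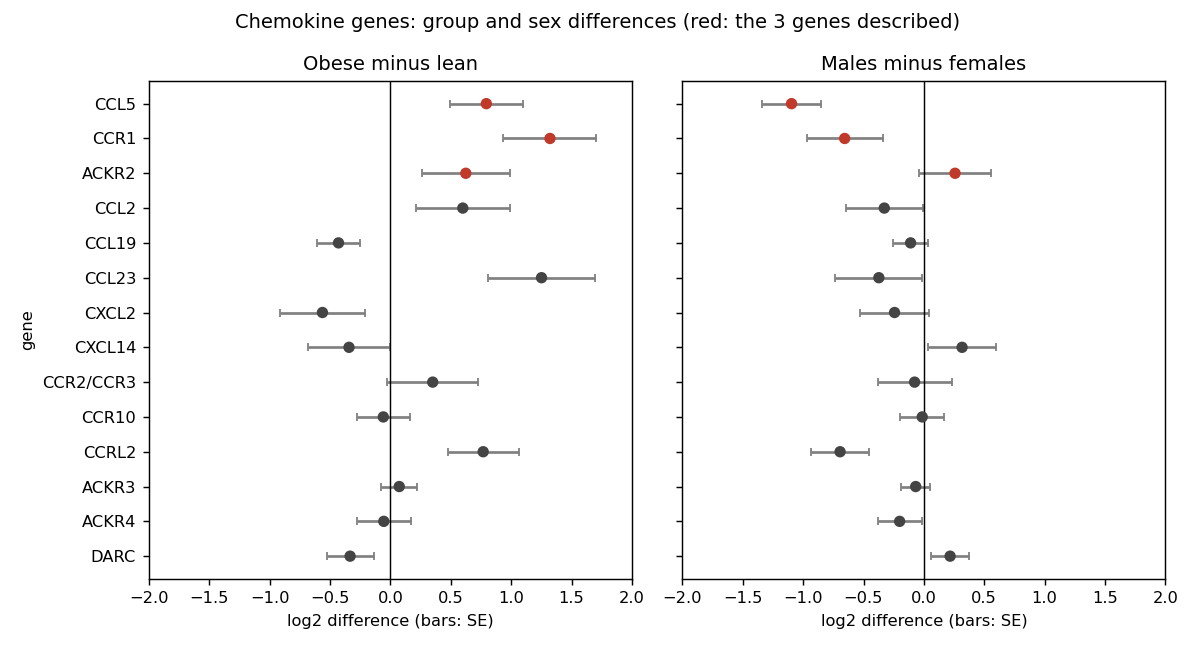
Obese minus lean (left) and males minus females (right) log2 differences with SE for CCL5, CCR1 and ACKR2 (red) and 11 other chemokine ligands and receptors in the table (grey). On the left CCR1 (1.32) and CCL23 (1.25) lie farthest to the right; on the right CCL5 (-1.10) lies farthest to the left.

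Genes that act below chemokine receptors were followed as a list of 35, of which 24 were in the table. None of the 24 was called between obese and lean pigs, 12 had an unadjusted p below 0.05 in limma with higher values in obese pigs (6.81% of all genes did), and the median difference was 0.28 beside -0.01 over all genes. GNAI1, GNAI2, GNAI3 and GNB1, subunits of the G proteins through which such receptors signal, had values of -0.04, 0.11, -0.05 and -0.02. Of the 15 listed transcription factors known to act on CCL5, 11 were in the table. None was called, and 3 had an unadjusted p below 0.05 with higher values in obese pigs, again beside 6.81% of all genes. IRF1, IRF3 and IRF5, interferon regulatory factors, had differences of 0.54, -0.10 and 0.79.

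Over the 36 pigs, with the mean difference between the sexes taken out, CCL5 and CCR1 had a Pearson r of 0.423 and a Spearman rho of 0.459. Without the 2 pigs farthest from the median of CCL5, r was 0.471. CCR1 and ACKR2 had an r of 0.388 and a rho of 0.369, and r was 0.363 without the 2 pigs farthest from the median of CCR1. CCL5 and ACKR2 had an r of -0.05 and a rho of -0.03, and 0.06 without the 2 farthest pigs. No p is given, because the choice of CCL5 used a sum of its correlations with all genes, and the receptors were chosen from co-expression in the same pigs.

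With the group means also taken out, r was 0.27 for CCL5 with CCR1 and 0.29 for CCR1 with ACKR2. For CCL5 with CCR1, r was 0.12 among lean pigs, 0.55 among intermediate pigs and 0.33 among obese pigs. For CCR1 with ACKR2 it was 0.22, 0.36 and 0.37. These values of 12 pigs each are imprecise. In the 19 males r was 0.566 and 0.568 for these pairs, and in the 17 females 0.44 and 0.12. For CCL5 with ACKR2, r was -0.21 with the group means also taken out. It was -0.35, 0.15 and -0.33 among lean, intermediate and obese pigs. In males it was 0.37 and in females -0.28, so the sign differed between the sexes.

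**Figure D4:**
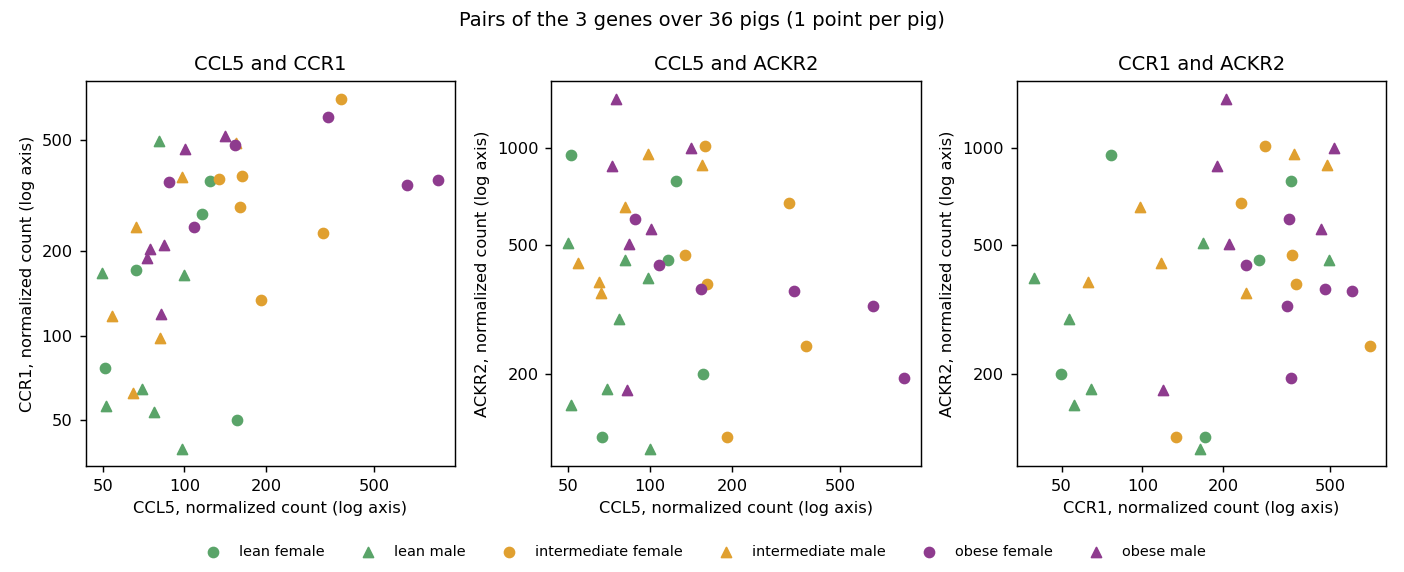
Normalized counts (log axes) of each pair of CCL5, CCR1 and ACKR2 in 36 pigs, with groups by color and sexes by symbol; values are not corrected for sex. The points of CCL5 with CCR1 rise together (r 0.423 after the sex term). Those of CCL5 with ACKR2 show no common direction (r -0.05 after the sex term, 0.37 in males and -0.28 in females).

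The genes with a symbol most like each of the 3 over the 36 pigs, by Pearson r after the sex term, differed from gene to gene. All 12252 other genes were searched. Genes without a symbol were passed over, so unnamed genes may lie between those named. For CCL5 they were CORO1A (0.79), IRF1 (0.77), PTPRCAP (0.76), CCL2 (0.75), ACAP1 (0.75) and SASH3 (0.74). CORO1A is an actin regulator of leukocytes, IRF1 an interferon-regulated transcription factor, PTPRCAP a partner of CD45 in lymphocytes, and SASH3 a lymphocyte adaptor. For CCR1 they were LCP1 (0.96), SPI1 (0.95), FCER1G (0.95), ITGB2 (0.95), GMFG (0.94) and PLEK (0.94). LCP1 bundles actin in leukocytes, SPI1 is the PU.1 transcription factor of myeloid cells, FCER1G the signalling chain of Fc receptors and ITGB2 the integrin chain shared by leukocytes.

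For ACKR2 the closest genes with a symbol were UAP1 (0.94), GALNT15 (0.87), ADGRD1 (0.86), MFAP5 (0.86), EMILIN2 (0.86) and EEIG2 (0.86). UAP1 makes the activated sugar for glycosylation, GALNT15 starts O-linked glycans, ADGRD1 is an adhesion receptor, and MFAP5 and EMILIN2 are proteins of the elastic matrix. An r above 0.8 was reached by no gene for CCL5, by 124 for CCR1 and by 27 for ACKR2. An r above 0.6 was reached by 94, 450 and 399 genes, respectively. All these values share the same 36 libraries.

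Marker lists differed likewise in their relation to the 3 genes. A score, the mean of the scaled genes of a list, had an r of 0.775 with CCL5 for T and NK cells, and 0.586 without the 2 farthest pigs (rho 0.598). The r of CCL5 was 0.329 with the score of the 13 macrophage genes and -0.359 with that of the 9 fibroblast and progenitor genes (rho -0.138, and -0.07 without the 2 farthest pigs). Within the T and NK cell list, CCL5 had r values of 0.71 with PRF1, the pore-forming protein of cytotoxic cells, 0.70 with CD2 and 0.24 with CD247.

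CCR1 had an r of 0.892 with the macrophage score (rho 0.893, and 0.87 without the 2 farthest pigs), with each of the 13 genes above 0.54. The highest were FCER1G (0.95) and MSR1 (0.94), a scavenger receptor. Its r was 0.270 with the T and NK cell score, within which NKG7 had 0.90, IL7R 0.74 and CD2 0.16. The 13 macrophage genes were all higher in obese than in lean pigs by their estimates, by 0.50 to 1.55 with a median of 0.80, and 11 had an unadjusted p below 0.05 in limma (6.81% of all genes did in that direction), none an adjusted one. Their summed normalized count had a median of 4872 in lean pigs (3407 to 18384), 10350 in intermediate pigs (4912 to 17276) and 12723 in obese pigs (7690 to 23008). Lean male 2, with the highest CCR1 count of the lean group (494), also had the highest macrophage score of all pigs (1.35). The part of macrophages in the CCR1 difference was not tested.

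ACKR2 had an r of 0.674 with the fibroblast and progenitor score (rho 0.705, and 0.702 without the 2 farthest pigs), of 0.569 with the macrophage score and of -0.064 with the T and NK cell score. LYVE1, a hyaluronan receptor of lymphatic vessels that some macrophages also carry, had an r of 0.77 with ACKR2, and the other lymphatic markers in the table, PDPN, FLT4 and RELN, had 0.17, -0.16 and -0.03. Summed normalized counts of the 9 fibroblast and progenitor genes were 149103 to 593412 in females and 255770 to 801826 in males. Among the chemokine genes, CCL23 was the one closest to ACKR2 (0.79), and CCRL2 was the one closest to CCR1 (0.85).

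Smaller lists of blood and vessel cells gave further values. CD22, the only listed B cell gene found in the table, had an r of 0.75 with CCR1 and 0.39 with CCL5. CSF3R, the receptor for the neutrophil growth factor, had 0.91 with CCR1 and ELANE, a neutrophil granule protease, 0.11. The score of the mast cell genes KIT and MS4A2 had an r of 0.673 with ACKR2. The score of 6 blood endothelium genes had -0.508 with ACKR2, -0.449 with CCR1 and 0.015 with CCL5.

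**Figure D5:**
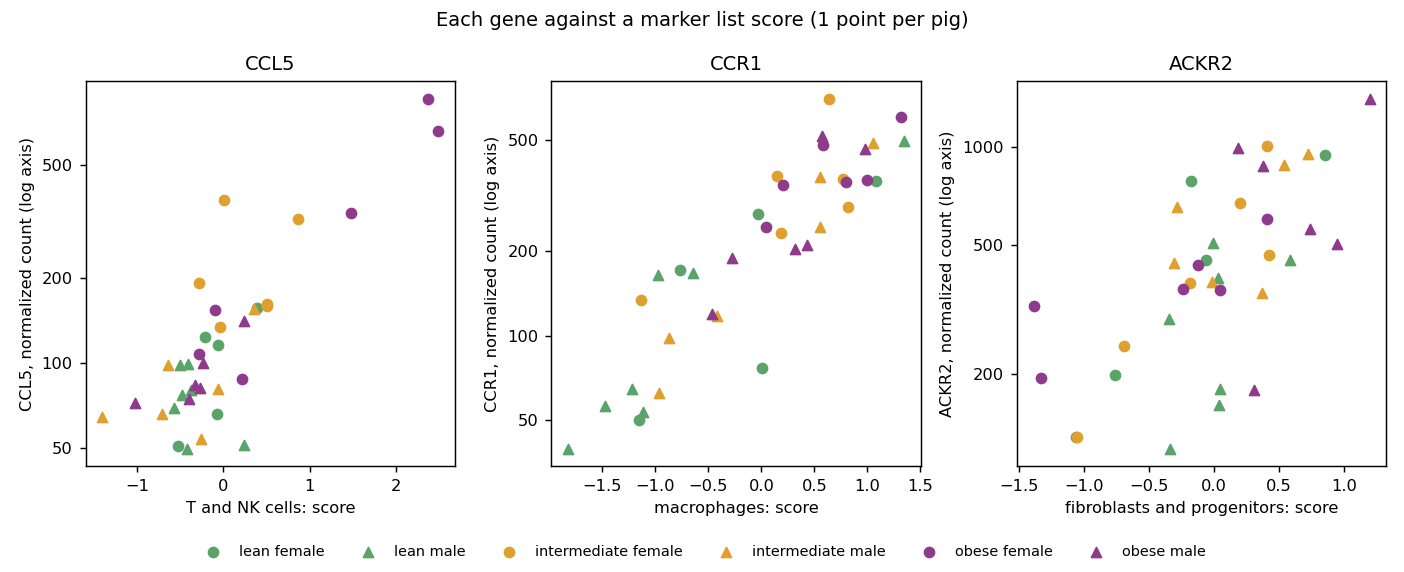
Normalized count (log axis) of CCL5, CCR1 and ACKR2 against the score of the T and NK cell, macrophage, and fibroblast and progenitor lists, with 1 point per pig, groups by color and sexes by symbol; scores and counts are not corrected for sex. CCR1 follows the macrophage score over all groups (r 0.892 after the sex term), and the 3 obese females with T and NK cell scores above 1.4 have CCL5 counts of 339 to 862.

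The 3 genes also differed in module. The first principal component of the 275 Blue module genes, taken from the gene list of the study, had an r of 0.940 with CCR1, which was 23rd of the 275, and of 0.450 with CCL5. That of the 105 Black module genes had an r of 0.887 with ACKR2, which was 19th of the 105, and of -0.160 with CCL5. The component of the Brown module was related to both receptors, with 0.786 for CCR1 and 0.745 for ACKR2. CCR1 and ACKR2 are among the genes from which the Blue and Black components were computed.

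Co-expression of CCL5 differed between the groups, which is how it was chosen. Connectivity is the sum of the absolute correlations, raised to the power of 9, with the other genes that had an SD above 0.25, divided by the highest value of the group. In the lean pigs CCL5 had 0.035 and in the obese pigs 0.723, a difference of 0.689 (jackknife SE 0.289) and the 13th largest of 8511 genes. CCL5 had an absolute r above 0.8 with 2 genes among lean pigs, 15 among intermediate pigs and 246 among obese pigs.

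The value in the obese group was lower without the obese females with high CCL5, who were left out after their values were seen. Without obese females 1, 2 and 3, the connectivity of CCL5 in the remaining 9 obese pigs was 0.267, and its rank among the 8511 genes was 3219, compared with 171 in the 12 obese pigs. Fewer pigs give higher correlations in general, as for every 20th gene the median count of partners with an absolute r above 0.8 was 39 with 12 pigs and 136.5 with 9. CCL5 had 163 partners in those 9 pigs. The scaled connectivity of ACKR2 went from 0.627 to 0.486 without the 3 females, and that of CCR1 from 0.325 to 0.411. Before division by the highest value, CCL5 fell from 116.8 to 91.8, whereas ACKR2 rose from 101.2 to 167.4 and CCR1 from 52.4 to 141.5. ACKR2 had 370 partners and CCR1 325 in those 9 pigs.

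The receptors had smaller differences between obese and lean pigs. CCR1 had a connectivity of 0.535 in lean and 0.325 in obese pigs, with a difference of -0.210 (jackknife SE 0.393) and 185, 245 and 106 partners in lean, intermediate and obese pigs. ACKR2 had 0.602 and 0.627, with a difference of 0.025 (jackknife SE 0.455) and 244, 76 and 196 partners. Both differences were smaller than their errors.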

How the data were processed

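Subcutaneous adipose RNA of 36 pigs was sequenced by the study. The authors mapped reads to Sscrofa10.2 with STAR and counted them per gene with HTSeq. The authors then dropped genes of low level, took a size factor for each pig from DESeq and made the deposited log2 values with voom of limma. Each value came out as log2 of whole reads plus 0.5, over the size factor plus 1, up to a constant, with at least 99.9% of the values of each pig within 0.1 of a whole read. Recovered reads were divided by the size factor for normalized counts. Sex is not taken out of the deposited values.

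Each pig was 1 biological replicate. limma 3.58.1 in R 4.3.3 (empirical Bayes with trend) was fitted to all 12253 genes with group and sex, or with their interaction, and p-values were BH-adjusted over all genes at 0.05. Correlations used residuals after a sex term, with no test in the text, since co-expression entered the choice of the genes, and males and females within a group were compared by exact permutation, in Python 3.11.15 with numpy 2.4.6, scipy 1.17.1 and pandas 2.3.3.

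The 3 genes and all lists were chosen with earlier results of these data known. Named are the 3 genes, the chemokine genes in the table, up to 4 genes per other list in list order, and the 6 genes with a symbol closest to each of the 3. Other genes were named after their values were seen, as were markers singled out by their r. Alternatives were other scalings, filters, terms and subsets of pigs. Some listed genes enter the counts but are not reported here by name. Lemon-Tree, phenotypes and sequences were not used here.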

Additional observations from a re-analysis of the deposited data

How the results depend on the processing

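Depth gave at least 36 reads of each of the 3 genes in each pig, and for them the spread between pigs, not depth, set most of the error. Over the whole table the fewest reads of a gene in a pig were 6. Genes called between obese and lean pigs were 5, and became 12 without the trend, 1 without the lowest 25% of genes, 9 with each pig's median subtracted, 17 with voom weights on whole reads, 9 when divided by the whole size factor, 3 without the sex term and 17 in lean and obese pigs alone. The 268 genes called between the sexes became 71 without obese females 1, 2 and 3. The 1 gene called for the interaction became 2 without the trend and 0 with each pig's median subtracted, with voom weights, with the whole size factor, without the 3 females and in lean and obese pigs alone. Male minus female CCL5 fell to -0.732 (adjusted p = 0.0725 in limma) without the 3 females. It kept its call under the other alternatives and in the 36 fits without a single pig, at -1.186 to -0.968. The r of CCL5 with CCR1 was 0.270 after group and sex terms, and 0.363 to 0.464 with each pig left out. The r of CCR1 with ACKR2 was 0.329 without the sex term, 0.288 after group and sex terms, 0.363 without the 2 farthest pigs, and 0.341 to 0.493 with each pig left out. The causes were not tested. Whole size factors and leaving out the 3 females were chosen after seeing the data. No paired analysis was made, because each pig belongs to 1 obesity group and 1 sex and the labels link no pigs between groups.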
